A study of Arabidopsis thaliana with 12 samples.

Results

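The regions described here were bound in Arabidopsis thaliana seedlings by REV and ATHB8, with no overlapping peak of PHB or ICU4. Peaks of the REV, PHB, PHV, ICU4 and ATHB8 lists that shared at least 1 bp were merged on the 5 nuclear chromosomes, which gave 16201 merged regions. Of these, 1381 held both a REV and an ATHB8 peak and neither a PHB nor an ICU4 peak, and a PHV peak was allowed. They are called the shared regions below. They were chosen by the authors' peak calls, so their number and the absence of PHB and ICU4 are a description and not a result.

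The data came from chromatin immunoprecipitation with sequencing (ChIP-seq), which recovers DNA fixed to a protein and maps it to the genome. All plants were seedlings of the Ler (Landsberg erecta) ecotype, 10 days old, grown on agar in long days. In the REV, ATHB8, PHB, PHV, ICU4 and TPL lines the native locus of the named protein carried a C-terminal 2xYPet-3xHA fusion, and an antibody against GFP, which binds the YPet part, was used in all 6 immunoprecipitations. The other 6 of the 12 samples were inputs, whose files were not analysed here, and an untagged control was not among the lists.

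REV, PHB, PHV, ICU4 (also called ATHB15 or CORONA) and ATHB8 form the HD-ZIPIII family (class III of the homeodomain leucine-zipper proteins), transcription factors that pattern the upper side of leaves, the shoot meristem and the vascular tissue. ATHB8 is known as an early marker of procambium, the tissue from which xylem and phloem arise, and REV acts in the vasculature, in leaf polarity and in the formation of lateral meristems. TPL (TOPLESS) does not bind DNA itself but is recruited by transcription factors and represses their targets. The DNA around Arabidopsis centromeres is largely heterochromatin, poor in genes and rich in transposons and in pseudogenes, which are remnants of genes or of mobile elements.

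The nuclear chromosomes held 5814 REV, 4813 ATHB8, 2790 PHB, 2872 PHV, 8964 ICU4 and 12785 TPL peaks. Since each protein had 1 list, replicate errors and tests between lists were not possible. Differences between proteins cannot be told apart from differences between libraries. Read depth is unknown. The series text speaks of duplicates, but pooling of these is not stated in the sources used here. The shortest REV peak was 56 bp and the shortest ATHB8 peak 45 bp, while the shortest PHB peak had 120 bp, the shortest PHV peak 130 bp, the shortest ICU4 peak 141 bp and the shortest TPL peak 285 bp. The part of these unequal minimum lengths in the results was not tested. An alternative without REV and ATHB8 peaks shorter than 141 bp, which left 205 shared regions, is given below. Plants were Ler while the TAIR10 genome comes from the Columbia ecotype, and the handling of reads that match several places was not given in the sources used here. Coordinates below are on TAIR10. Shares carry Wilson 95% intervals and medians carry binomial order-statistic 95% intervals. Both cover counting error only and treat regions as independent, although many lie side by side.

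Most shared regions lay in the gene-poor middle of the chromosomes. Of the 1381, 1124 (81.4%, interval 79.3 to 83.4) were gene-poor, meaning that the 50 kb on either side of the midpoint together held fewer than 10 protein-coding genes, against 28.6% of all merged regions. The chromosome centre was taken as the middle of the 2 Mb window with the fewest protein-coding genes, as a stand-in for the centromere. Within 2 Mb of it lay 1096 shared regions (79.4%, 77.1 to 81.4), against 30.1% of all merged regions, in 16.8% of the chromosome length. Their median distance from the centre was 0.810 Mb (quartiles 0.378 and 1.68 Mb), against 5.50 Mb for all merged regions. Put the other way, shared regions made up 24.3% of the gene-poor merged regions (23.1 to 25.5) and 2.22% of the others (1.97 to 2.51).

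Counting the same shared regions by the peaks of each list gave the same gradient, which is not separate evidence. The rule bars PHB and ICU4, and 29.9% of the regions of REV and ATHB8 with PHB or ICU4 were gene-poor. How far this shapes the gradient was not tested. In gene-poor surroundings 37.6% of the REV peaks lay in shared regions (35.9 to 39.3), against 9.85% of the REV peaks elsewhere (8.79 to 11.0). Of the gene-poor ATHB8 peaks 43.5% lay in shared regions (41.7 to 45.4), against 14.5% of the ATHB8 peaks elsewhere (13.0 to 16.2).

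REV or ATHB8 peaks that met no other of these partners also leaned to the centre, though less. Among 2437 regions with REV but without ATHB8, PHB and ICU4, 68.0% were gene-poor (66.1 to 69.8). Within 2 Mb of a centre lay 69.9% of them (68.1 to 71.7), and their median distance from it was 0.962 Mb, near that of the shared regions. Among 2423 regions with ATHB8 but without REV, PHB and ICU4, 56.1% were gene-poor (54.1 to 58.1). Of these, 60.6% lay within 2 Mb of a centre (58.7 to 62.6), at a median distance of 1.47 Mb. The 461 regions that held REV and ATHB8 together with PHB or ICU4 lay elsewhere: 29.9% of them were gene-poor (25.9 to 34.3), and their median distance from the centre was 5.22 Mb. For the gene-poor share, the interval of the shared regions overlapped none of these 3. With 1 shared region per cluster, an alternative added after the data had been seen, the gene-poor share was 69.0% (64.4 to 73.3). That interval overlaps the one of the regions with REV but without ATHB8, PHB and ICU4, which were not reduced in this way.

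**Figure D1:**
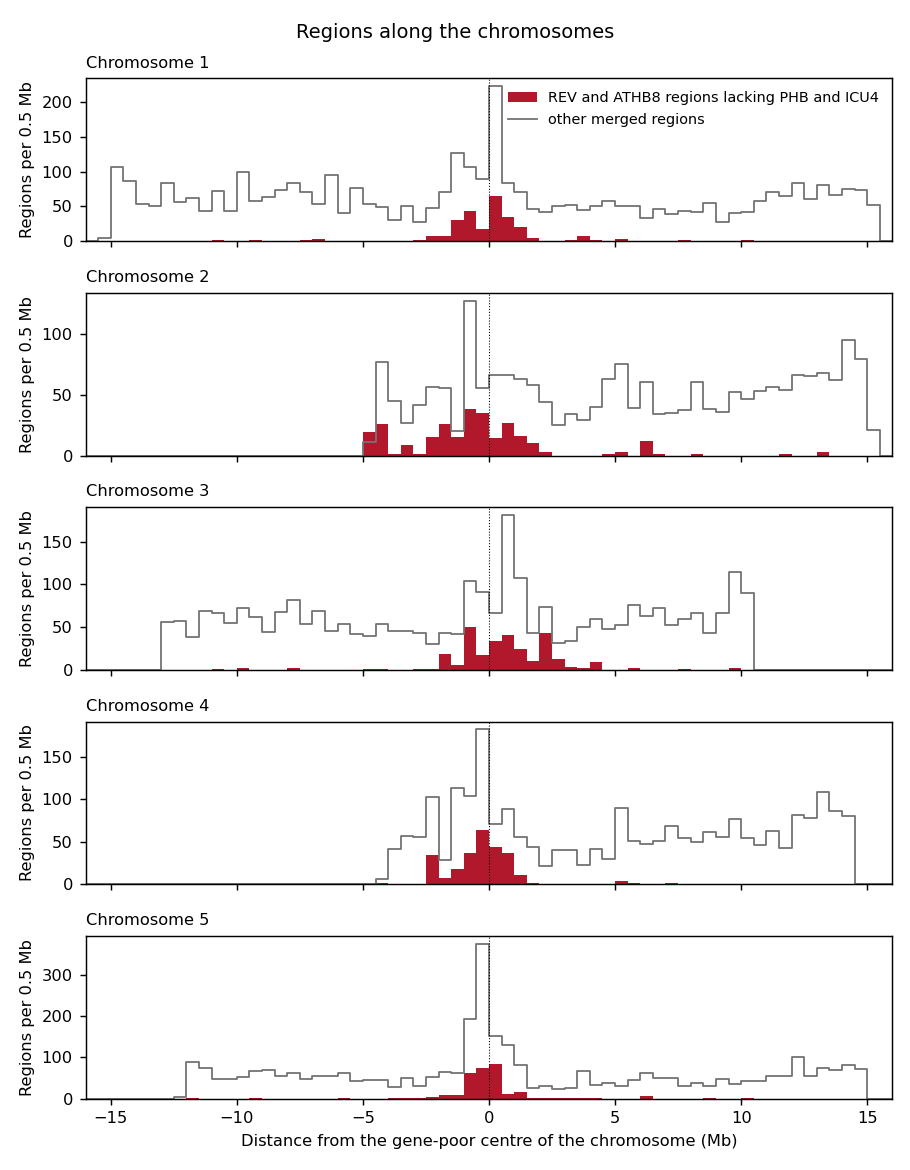
Number of regions in bins of 0.5 Mb (y axis) by distance in Mb from the gene-poor centre of each chromosome (x axis, dotted line at the centre); filled bars are the shared REV and ATHB8 regions and the grey outline is all other merged regions. The bars pile up around the centre on every chromosome, and chromosome 2 has a further group at its left end.

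All 5 chromosomes showed this placement. Chromosomes 1 to 5 held 252, 277, 286, 271 and 295 shared regions. Within 2 Mb of the centre lay 91.5% of those on chromosome 5 and 88.5% of those on chromosome 1, against 31.3% and 20.9% of the other merged regions there. On chromosome 4 the share was 81.2%, against 28.7% of the other regions, and on chromosome 3 it was 70.6%, against 23.2%. Chromosome 2 had the lowest share, 65.3%, against 23.9% of its other regions. It held 67 of the 125 shared regions that lay more than 4 Mb from a centre.

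The density was uneven even near the centres. The fullest bins of 1 Mb were 11 to 12 Mb and 12 to 13 Mb on chromosome 5, with 121 and 112 shared regions. Next came 3 to 4 Mb on chromosome 4 with 99, 15 to 16 Mb on chromosome 1 with 94 and 4 to 5 Mb on chromosome 4 with 87. In the same order, shared regions were 18.9%, 25.9%, 24.9%, 22.4% and 35.1% of the merged regions in these bins. The order by count is thus not the order by share, and the fullest bin held 640 merged regions. Among bins lying wholly more than 2 Mb from a centre, that from 15 to 16 Mb on chromosome 3 held 56 shared regions. They were 34.8% of its merged regions. The first 1 Mb of chromosome 2 held 46 (26.0%). The bin from 1 to 2 Mb on chromosome 4 held 32 (17.2%), and that from 10 to 11 Mb on chromosome 2 held 15 (12.3%).

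Pseudogenes were by far the most frequent neighbours. A neighbour is the nearest entry of the gene table within 2000 bp of the midpoint, or the entry that holds it. It was a pseudogene for 1207 shared regions (87.4%, 85.5 to 89.0), against 30.7% of all merged regions, and 845 midpoints (61.2%) lay inside the pseudogene. It was a protein-coding gene for 72 (5.21%, 4.16 to 6.52), against 57.7% of all merged regions. A further 12 had a non-coding RNA gene, 1 of them a tRNA gene, and 90 (6.52%) had no entry within 2000 bp. Among regions with REV alone of REV, ATHB8, PHB and ICU4, 63.6% had a pseudogene neighbour (61.7 to 65.5), and with ATHB8 alone 70.9% (69.0 to 72.6). Where REV and ATHB8 met PHB or ICU4 it was 33.8% (29.7 to 38.3).

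**Figure D2:**
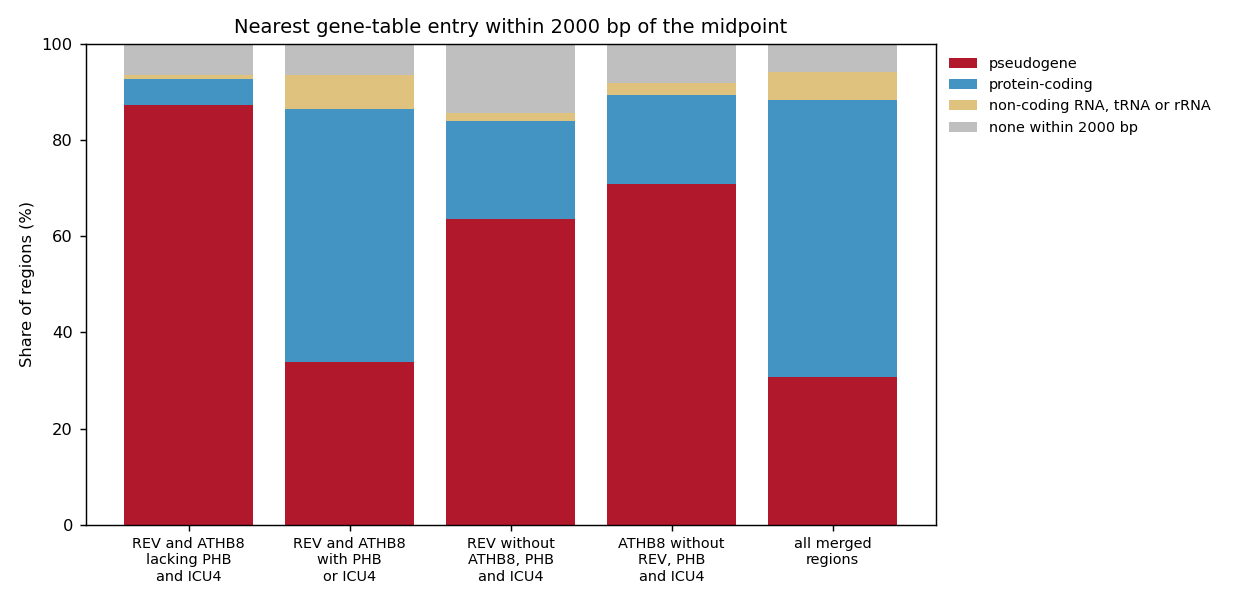
Share of regions in percent (y axis) by the class of the nearest gene-table entry within 2000 bp of the midpoint, for the shared regions, 3 related kinds of region and all merged regions (bars from left to right). The pseudogene part reaches 87.4% in the shared regions and 30.7% in all merged regions.

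Pseudogenes are themselves concentrated near the centres, where 61.5% of the 4843 nuclear pseudogenes lay within 2 Mb of a centre, against 4.88% of the 27444 protein-coding genes. The shares were therefore also taken within each kind of surroundings. In gene-poor surroundings 90.8% of the shared regions had a pseudogene neighbour (89.0 to 92.4), against 75.8% of the other merged regions (74.3 to 77.2). In all other surroundings it was 186 of 257 shared regions (72.4%, 66.6 to 77.5), against 9.82% of the other merged regions (9.28 to 10.4). There, 53.1% of the regions with ATHB8 but not REV, PHB or ICU4 had one (50.1 to 56.1), and 36.0% of those with REV but not ATHB8, PHB or ICU4 (32.7 to 39.5).

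The neighbours were spread over many pseudogenes, with a few that recurred. In all, 593 pseudogenes, 12.2% of those in the table, were the neighbour of a shared region. Of these, 320 had 1 shared region and 45 had 5 or more, which took 317 shared regions together. AT3G42996 had the most with 16, followed by AT2G06470 with 15, AT5G29075 with 14, AT3G29615 with 13 and AT4G03840 with 11. The table gives these loci no further name. The table names 16 nuclear entries as a transposon, and 0 of them had a shared region within 2000 bp. It does not mark transposons as a class of their own, so which pseudogenes derive from them was not analysed here.

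Shared regions were somewhat narrower than the merged regions as a whole. Their median width was 133 bp (128 to 140, quartiles 93 and 205), against 173 bp for all merged regions (171 to 175, quartiles 108 and 263). Widths of shared regions ran from 57 to 3993 bp. Regions with REV but without ATHB8, PHB and ICU4 were narrower still at 83 bp (81 to 85), as were those with ATHB8 but without REV, PHB and ICU4 at 71 bp (69 to 73). Regions of REV and ATHB8 with PHB or ICU4 had a median of 545 bp (498 to 585), and none can be shorter than the shortest PHB peak, 120 bp. Most shared regions were simple: 1252 held 1 REV and 1 ATHB8 peak, 47 held more than 1 REV peak and 109 more than 1 ATHB8 peak.

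The peaks inside shared regions were slightly wider than the rest of their own lists. REV peaks had a median width of 105 bp in shared regions and 97 bp elsewhere, and ATHB8 peaks 86.5 bp in shared regions and 77 bp elsewhere. Most were shorter than any ICU4 peak: 67.0% of the REV peaks in shared regions were under 141 bp, against 71.8% of the other REV peaks. For ATHB8 it was 78.1% in shared regions and 81.6% elsewhere. When REV and ATHB8 peaks shorter than 141 bp were left out, an alternative added after the data had been seen, 205 shared regions were left. Of those, 69.3% lay within 2 Mb of a centre and 90.2% had a pseudogene neighbour.

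**Figure D3:**
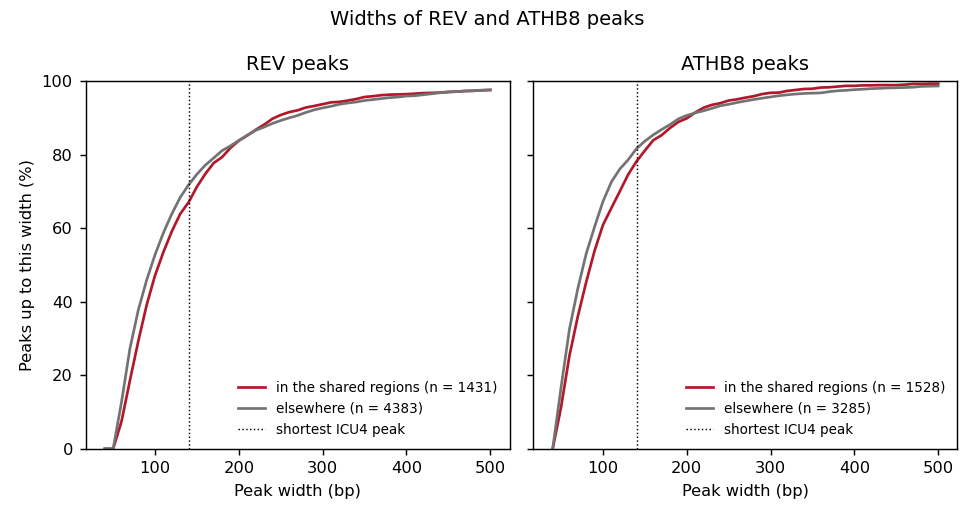
Cumulative share of peaks in percent (y axis) up to a given width in bp (x axis), for REV peaks (left) and ATHB8 peaks (right), in the shared regions and elsewhere; the dotted line marks the shortest ICU4 peak, 141 bp. In both lists the curve of the shared regions lies to the right of the other at small widths, and the curves meet at larger ones.

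Fold enrichment is the authors' value of a single peak, the ratio of its signal to the local background, and was read within a list only. The 1431 REV peaks in shared regions had a median of 4.13 (quartiles 3.59 and 4.93), against 3.59 for the other REV peaks (3.11 and 4.27). The 1528 ATHB8 peaks in shared regions had a median of 3.37 (2.96 and 3.89), against 3.10 for the others (2.72 and 3.51). Thus the quartile ranges overlapped in both lists. Of the 100 ATHB8 peaks with the highest fold enrichment, 57 lay in shared regions, which held 31.7% of the ATHB8 list. Of the 100 highest REV peaks, 30 did, and shared regions held 24.6% of the REV list.

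Across the 1381 shared regions the highest REV and the highest ATHB8 fold enrichment were weakly related, with a Pearson correlation of 0.284 and a Spearman correlation of 0.279. These points share the genome position and the same peak caller, and neighbouring regions are not independent, so the values are descriptive. Gene-poor shared regions had a median REV fold enrichment of 4.27 (4.17 to 4.41), against 3.86 in the 257 others (3.72 to 4.0). For ATHB8 it was 3.41 in gene-poor regions (3.39 to 3.51) and 3.31 in the others (3.21 to 3.41), with intervals that overlap.

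**Figure D4:**
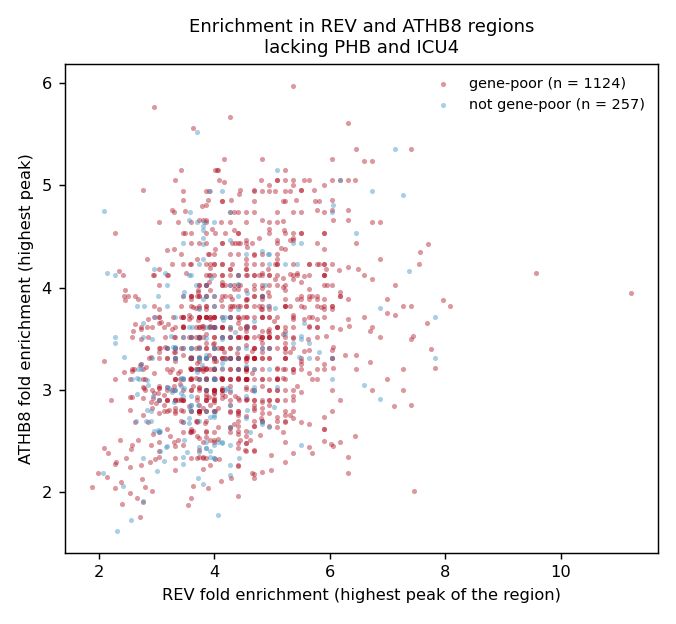
Highest ATHB8 fold enrichment (y axis) against highest REV fold enrichment (x axis) of each shared region, with gene-poor regions and other regions in separate colours; each point is 1 region. The cloud is broad, with a Spearman correlation of 0.279 over 1381 regions.

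The REV and ATHB8 peaks of a shared region mostly had close summits. The rule joins overlapping peaks and most of these were short, so the closeness is a description and not a result. The summits of its highest REV and highest ATHB8 peak were a median of 19 bp apart (17 to 21; quartiles 7 and 53). Without REV and ATHB8 peaks shorter than 141 bp the median was 46 bp (31 to 67), over 205 shared regions. They were at most 10 bp apart in 477 shared regions (34.5%) and at most 50 bp apart in 1020 (73.9%). The ATHB8 summit lay at the higher coordinate in 671, at the lower in 675 and at the same base in 35. The ATHB8 peak lay wholly inside the REV peak in 578 (41.9%), and the REV peak inside the ATHB8 peak in 193 (14.0%).

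Few regions depended on the overlap threshold. In 6 shared regions the REV and ATHB8 peaks overlapped by 10 bp or less, with a median REV fold enrichment of 3.84 and a median ATHB8 fold enrichment of 3.00. In 3 they were joined only through a PHV peak. Just outside the rule, 9 of the 2437 regions with REV but without ATHB8, PHB and ICU4 had an ATHB8 peak within 10 bp. Their median fold enrichments were 3.26 for REV and 3.00 for the ATHB8 peaks beside them. A PHB or ICU4 peak lay within 10 bp of 1 shared region, within 100 bp of 19 and within 1000 bp of 192 (13.9%). The median gap to the nearest PHB or ICU4 peak was 16227 bp.

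PHV, whose peaks were allowed, overlapped 211 shared regions (15.3%, 13.5 to 17.3), against 16.7% of all merged regions. The comparison depended on place. In gene-poor surroundings 14.4% of the shared regions had a PHV peak (12.5 to 16.6), against 4.48% of the other merged regions (3.85 to 5.22). In all other surroundings it was 19.1% of the shared regions (14.7 to 24.3) and 20.7% of the other merged regions (19.9 to 21.4). Of the 461 regions with PHB or ICU4, 75.7% had a PHV peak (71.6 to 79.4). Shared regions with PHV were wider than those without, with medians of 269 bp (243 to 298) and 119 bp (114 to 124), and a PHV peak itself is never shorter than 130 bp. Their REV peaks had a median fold enrichment of 4.55 (4.33 to 4.83), against 4.13 without PHV (4.0 to 4.18), and their ATHB8 peaks 3.79 (3.61 to 3.92), against 3.32 without PHV (3.31 to 3.41). Of the 100 highest PHV peaks, 0 lay in a shared region, and shared regions held 7.73% of the PHV list. The PHV peaks in shared regions had a median fold enrichment of 3.09, against 3.15 for the other PHV peaks.

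TPL, which the rule did not use, was nearly absent from the shared regions. A TPL peak overlapped 5 shared regions (0.362%, 0.155 to 0.845), against 41.8% of all merged regions. Of the 1124 gene-poor shared regions, 0 had one (interval up to 0.341%). TPL was about as scarce in gene-poor regions with REV or ATHB8 but not both, and without PHB and ICU4. There 1 of 1657 regions with REV but without ATHB8, PHB and ICU4 had a TPL peak (0.0604%, 0.0107 to 0.341), and 2 of 1359 with ATHB8 but without REV, PHB and ICU4 (0.147%, 0.0404 to 0.535). These intervals overlap that of the shared regions. In gene-poor regions where REV and ATHB8 met PHB or ICU4 it was 3 of 138 (2.17%, 0.742 to 6.20). Over all gene-poor merged regions other than the shared ones it was 1.23% (0.913 to 1.65). Neither of these intervals overlaps that of the gene-poor shared regions. In all other surroundings 5 of 257 shared regions had a TPL peak (1.95%, 0.834 to 4.47), against 59.4% of the other merged regions there (58.5 to 60.3). There it was 4.61% (3.50 to 6.04) with ATHB8 but without REV, PHB and ICU4, an interval that overlaps that of the shared regions. With REV but without ATHB8, PHB and ICU4 it was 23.1% there (20.3 to 26.2). With REV, ATHB8 and PHB or ICU4 it was 80.5% there (75.8 to 84.4). Regardless of surroundings, regions with REV but without ATHB8, PHB and ICU4 held TPL in 7.43% (6.45 to 8.54). Those with ATHB8 but without REV, PHB and ICU4 did in 2.10% (1.60 to 2.76). Where REV and ATHB8 met PHB or ICU4 it was 57.0% (52.5 to 61.5).

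The 5 exceptions lay more than 4 Mb from a centre, and none belonged to a cluster. On chromosome 3 the region 2366091 to 2366165 lay inside AIR12 (AT3G07390, Auxin-Induced in Root cultures 12). The TPL peak over it had a fold enrichment of 6.85 and its summit at 2365327, outside the region. The REV and ATHB8 peaks of this region were modest, at 2.63 and 2.69. The region 8210057 to 8210209 of chromosome 3, inside the pseudogene AT3G23085, met a TPL peak at 7.08, with REV at 3.21 and ATHB8 at 3.02. That TPL peak had its summit at 8209305, also outside the region. The remaining TPL peaks were weaker. That at 9909277 to 9909498 on chromosome 4, inside the pseudogene AT4G17820, had 2.56. That at 9063173 to 9063255 on chromosome 2, 1121 bp from PRP2 (AT2G21140), had 2.33, and that at 2983839 to 2984011 on chromosome 5, inside AT5G09620, had 1.96. Only the TPL peak on chromosome 2 had its summit, at 9063145, within 100 bp of the shared region.

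Shared regions came in runs. A cluster was a chain of at least 3 shared regions with gaps of at most 10 kb, and 1057 (76.5%, 74.2 to 78.7) belonged to 152 such clusters. Among the 205 shared regions left without REV and ATHB8 peaks shorter than 141 bp, 45.4% were clustered (38.7 to 52.2). Chained the same way, 84.0% of all merged regions fell in clusters, but that set is far denser. By comparison, 72.4% of the 2437 regions with REV but without ATHB8, PHB and ICU4 were clustered. It was 65.1% of the 2423 regions with ATHB8 but without REV, PHB and ICU4, and 27.5% of the 461 regions with PHB or ICU4. Such a share depends on how many regions a set holds, and these sets differ in size from the 1381 shared regions. The 205 regions are a smaller set as well. The part of set size was not tested, so these shares do not rank the sets by clustering. A further 186 shared regions stood alone and 69 pairs made up the rest. The 35 clusters of 10 or more held 522 shared regions.

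The median gap between neighbouring shared regions was 1929 bp (quartiles 403 and 15841), 535 of the 1376 gaps (38.9%) were under 1000 bp, and 220 were under 200 bp. The 2437 regions with REV but without ATHB8, PHB and ICU4, a larger set, had a like median gap of 2013 bp. All shared regions were gene-poor in 128 of the 152 clusters, whose median span was 8931 bp. The clusters were not free of other peaks. Their spans held 2247 merged regions in all, of which 47.0% were shared regions. A further 26.6% had REV but not ATHB8, PHB or ICU4, 20.7% had ATHB8 but not REV, PHB or ICU4, and 5.43% had PHB or ICU4.

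The cluster with the most shared regions, 44, lay at the left end of chromosome 2. It ran from 13757 to 66051, 4.50 Mb from the centre, and shared regions covered 35.8% of its 52295 bp. Of the 44, 43 had a pseudogene neighbour, drawn from 8 loci between AT2G01024 and AT2G01040, and 26 were gene-poor. PHV overlapped 19 of them. REV fold enrichment ran from 2.28 through a median of 4.91 to 7.37, and ATHB8 from 2.13 through 3.63 to 5.61. The span also held 9 regions with PHB or ICU4.

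The second, with 35 shared regions, ran from 12122011 to 12170001 on chromosome 5, 0.102 Mb from the centre. All 35 were gene-poor and had pseudogene neighbours, from 12 loci, and shared regions covered only 11.4% of its 47991 bp. PHV overlapped 7. Its span held 75 merged regions, 30 of them with REV but without ATHB8, PHB and ICU4. The third, with 22, was compact and almost pure: from 2563159 to 2577920 on chromosome 2, 22 of its 24 merged regions were shared regions. Its pseudogene neighbours ran from AT2G06460 to AT2G06500. REV was strong throughout, from 4.13 through a median of 5.38 to 6.86, and ATHB8 ran from 2.27 through 3.60 to 4.85. No shared region in these 3 clusters overlapped a TPL peak.

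**Figure D5:**
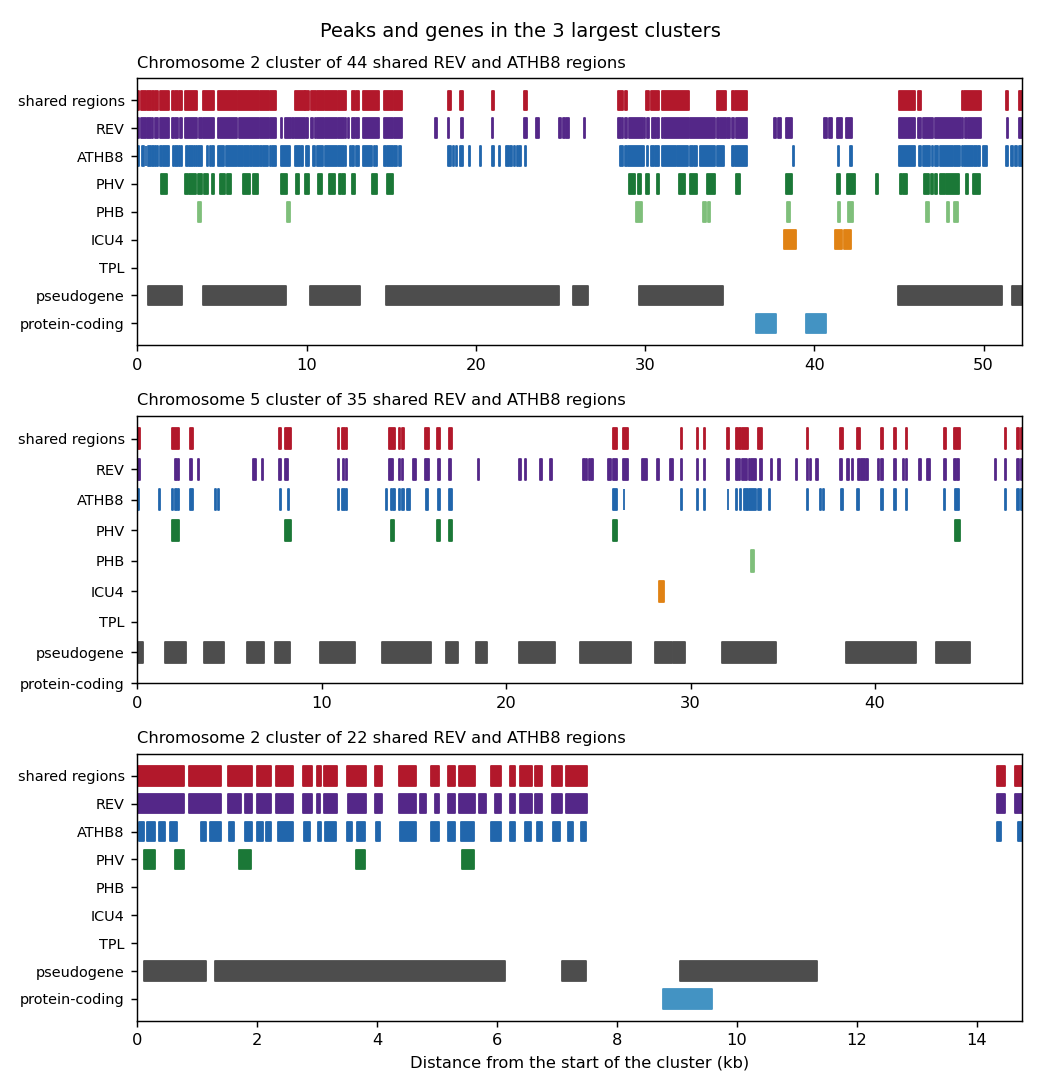
Peaks and gene-table entries along the 3 clusters with the most shared regions; the x axis is the distance in kb from the start of the cluster and each row of boxes is 1 kind of feature. REV and ATHB8 boxes coincide over long stretches of pseudogene, PHB and ICU4 boxes are few or missing, and the TPL row is empty in all 3.

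By the mean of their ranks for REV and ATHB8 fold enrichment, 9 of the 10 leading shared regions had a pseudogene within 2000 bp. This is near the 87.4% of all shared regions. The first lay at 1800557 to 1801148 on chromosome 4 inside AT4G03840, with a REV fold enrichment of 7.40 and an ATHB8 fold enrichment of 5.36. The next, at 5180106 to 5180299 on chromosome 4, lay 1897 bp from AT4G08200, with REV at 7.13, ATHB8 at 5.36 and PHV at 3.31. The third lay at 4241661 to 4242931 on chromosome 2 inside AT2G10780, with REV at 6.72, ATHB8 at 5.24 and PHV at 3.81. These and the rest of the 10 lay on chromosomes 2, 3 and 4.

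In the cluster at the left end of chromosome 2 lay 4 of the 10. Its region at 25603 to 26117 inside AT2G01028 had 6.59 for REV and 5.24 for ATHB8, and that at 21602 to 21932 inside AT2G01026 had 6.31 and 5.61. The region at 44738 to 46326 inside AT2G01034 had 7.27 for REV and 4.90 for ATHB8, and that at 58754 to 59712 inside AT2G01037 had 6.72 and 4.95. The other 3 lay on chromosome 3. The one at 12842322 to 12842405 inside AT3G31530 had 6.44 for REV and 5.05 for ATHB8. The one at 13822841 to 13822992, 1282 bp from AT3G33094, had 6.31 and 5.05. The exception, at 14177627 to 14177697, was only 71 bp wide and 5501 bp from the nearest entry, with 6.45 for REV and 5.36 for ATHB8.

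The widest shared region, 3993 bp at 3843388 to 3847380 on chromosome 4, was a single REV peak with a fold enrichment of 7.0 over the pseudogene AT4G06656. It spanned 12 separate ATHB8 peaks, the highest at 3.76. The next widest were 2 regions already named on chromosome 2, that of AT2G01034 at 1589 bp and that of AT2G10780 at 1271 bp.

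Shared regions at protein-coding genes were rare. In all, 34 midpoints lay inside 30 protein-coding genes. By mean rank the first was 12127597 to 12127667 on chromosome 1, inside AT1G33440 (NPF4.4, of the NRT1/PTR family of membrane transporters), with 6.18 for REV and 5.05 for ATHB8. Next came 10806757 to 10806910 on chromosome 2 inside AT2G25370, with 6.45 and 4.54. EDA34 (AT4G00140, embryo sac development arrest 34) on chromosome 4 held a pair, at 51253 to 51612 with 4.82 and 4.35 and at 52074 to 52148 with 5.50 and 3.53.

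The other 7 of the 10 genes with the best mean rank were AT5G27170, AT5G30341, AT3G50250, AT4G08760, AT4G08410, AT2G43160 and AT4G08400, none of which the table names further. AT5G30341 had ATHB8 at 5.56 and REV at 3.62, while AT5G27170 had REV at 5.36 and ATHB8 at 3.46. AT4G08410, AT2G43160 and AT4G08400 held a pair of shared regions each, with REV between 3.02 and 4.56. No overlap with a TPL peak was found at any of these 10 genes.

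Few protein-coding genes of any kind had a shared region nearby: 153 of the 27444 (0.557%) had one within 2000 bp. Against that background, lists of a few genes hold next to no information. The count was 0 of 5 HD-ZIPIII genes and 0 of 4 little zipper genes (ZPR1 to ZPR4, whose small proteins bind and restrain HD-ZIPIII proteins). It was likewise 0 of 10 HD-ZIPII genes, which encode related homeodomain leucine-zipper factors, and 0 of 21 light-harvesting genes, taken as strongly transcribed loci.

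Shared regions far from the centres had fewer pseudogene neighbours. Within 0.5 Mb lay 451 shared regions, from 0.5 to 1 Mb 381, from 1 to 2 Mb 264, from 2 to 4 Mb 160 and beyond 4 Mb 125. In that order the share with a pseudogene neighbour was 89.8%, 90.0%, 87.1%, 85.6% and 73.6%. Beyond 4 Mb its interval was 65.3 to 80.5, below the intervals of the 3 classes nearest the centre. The median width was 127, 119, 140.5, 140 and 178 bp in the same order. The share with a PHV peak was 15.5%, 11.8%, 13.3%, 16.2% and 28.0%, and beyond 4 Mb its interval of 20.9 to 36.4 overlapped that of the class before it. The median REV fold enrichment was 4.26, 4.13, 4.31, 4.09 and 3.79. Of the 125 farthest regions, 44 belonged to the cluster at the left end of chromosome 2, so the values of this class lean on 1 cluster. These 44 included 19 of the 35 farthest regions with a PHV peak and 43 of the 92 with a pseudogene neighbour. Their median width was 285 bp.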

How the data were processed

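Peak lists of 6 immunoprecipitations were analysed, 1 list per protein. The submitters' processing notes name Bowtie2, MACS2 and the TAIR10 build, without version or parameters. The columns are, per the file headers, those that MACS2 writes. Pileup, the authors' coverage signal under a summit, entered no result. Significance was deposited as −log10 p-values and q-values, and the q-values ranked peaks in 1 alternative. The fold enrichment deposited for each peak is a ratio of immunoprecipitated signal to local background and was read within a list only. No read counts were given, so depth is unknown.

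Peaks were merged, and regions were described, with Python 3.11.15, pandas 2.3.3, numpy 2.4.6 and scipy 1.17.1, and figures were drawn with matplotlib 3.10.9. Gene names, classes and distances came from a RefSeq gene table of assembly TAIR10.1, whose coordinates are not printed. It marks pseudogenes but has no class for transposons. The steps were tested on simulated peaks with known answers. No chance test was made, since there was 1 list per protein.

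The regions, gene lists and thresholds were chosen with earlier results of these data known. The named regions were the 10 with the best mean rank of REV and ATHB8 fold enrichment, the 3 clusters with the most regions, the 3 widest regions and every region with a TPL peak. The named genes were the 10 protein-coding genes of best mean rank that hold a region's midpoint. Pseudogene loci with the most regions were chosen after their values were seen. The planned printing of sequences was not done, since no genome sequence was used here.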

Additional observations from a re-analysis of the deposited data

How the results depend on the processing

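No paired analysis was possible because there was 1 list per protein and no result came from a test. In 39 of 74 combinations of a result and an alternative, the value stayed within the interval of the reported value or, for the number of shared regions, within 1.5 times of it. In the other 35 it did not, and the cause was not tested except where the setting itself moves the value. With lists of equal length by fold enrichment (2790 peaks each) there were 763 shared regions, with a median width of 145 bp, 85.8% gene-poor, 82.4% near a centre, 68.5% in clusters and summits 15 bp apart. With the upper 50% of each list by q-value there were 737, with 153 bp, 89.1% with a pseudogene neighbour, 68.9% in clusters and summits 15 bp apart. With PHV barred the width was 119 bp and 71.9% were clustered. With no PHB or ICU4 peak allowed within 1000 bp, 73.3% were clustered. Other definitions move a share by construction. With fewer than 5 genes 56.8% were gene-poor, and with fewer than 20 genes in 100 kb to each side 78.0%. Near a centre lay 60.2% within 1 Mb, 88.8% within 3 Mb and 82.2% with the centre from a 1 Mb window. A pseudogene neighbour was found for 75.5% within 500 bp and 90.5% within 5000 bp. Clusters held 69.4% with gaps of 5 kb and 91.0% with gaps of 50 kb. A TPL summit within 100 bp was found for 0.0724%. The following alternatives were chosen after seeing the data. Without REV and ATHB8 peaks shorter than the shortest ICU4 peak, 205 shared regions were left, with 274 bp, 69.3% near a centre, 90.2% with a pseudogene neighbour, 45.4% in clusters, summits 46 bp apart and 0 TPL peaks. With 1 shared region per cluster, 69.0% were gene-poor, 72.7% near a centre and 77.4% had a pseudogene neighbour, with summits 16 bp apart. Without the 3 largest clusters every value stayed in its interval. Unknown read depth limits any statement on a missing PHB or ICU4 peak.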

Other observations

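Among clusters of shared regions more than 4 Mb from a chromosome centre, the one with the most after that at the left end of chromosome 2 ran from 10593091 to 10608632 on the same chromosome, 6.07 Mb from the centre. It held 11 shared regions, none of them gene-poor, and all 11 had pseudogene neighbours, from 6 loci between AT2G24890 and AT2G24930. REV fold enrichment ran from 2.57 through a median of 3.72 to 4.95, and ATHB8 from 2.63 through 3.31 to 4.23. PHV overlapped 0 of the 11. The cluster span held 14 regions with REV but without ATHB8, PHB and ICU4, and 5 with ATHB8 but without REV, PHB and ICU4.

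A cluster farther out, 13.4 Mb from the centre of chromosome 2 at 17946195 to 17952479, was unlike the other 7 of this kind in having no pseudogene neighbour: its 3 shared regions lay in the protein-coding genes AT2G43150 and AT2G43160, which the table does not name further. A cluster at 20476053 to 20477588 on chromosome 1, by the pseudogenes AT1G54923 and AT1G54926, had a PHV peak at all 3 of its shared regions, which covered 56.0% of the span. These clusters were chosen after their values were seen.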
